A study of Homo sapiens with 6 samples.

Results

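Metallothioneins are small cysteine-rich proteins that bind zinc and copper. The genes described here were taken from a list of 6 human metallothionein genes, of which MT2A, MT1E, MT1F and MT1X had a row in the deposited table of 26748 genes and MT1G and MT1M were not analysed here. They were measured by RNA-seq in M14, an established human melanoma cell line, grown either as a conventional adherent culture (2D, 3 libraries) or without adhesion as melanospheres, which are multicellular spheres in suspension (3D, 3 libraries). The study set out to characterise the cells of both cultures and to look for putative cancer stem cells in the spheres. The labels name no drug, added metal or genetic change in either group, and all libraries come from 1 cell line. Whether replicates were separate cultures is not stated, so each p-value is set against a spread among libraries that could be technical.

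The cysteines of a metallothionein hold metal ions in clusters, so the protein stores and buffers zinc and copper, traps cadmium and reacts with oxidants. Free zinc activates the transcription factor MTF1, which binds metal response elements upstream of the metallothionein genes and of the zinc exporter gene SLC30A1. Glucocorticoids, cytokines and oxidants raise the same genes in many cell types. In melanoma, metallothionein protein has been studied as a marker of progression, and MT1E has been described as a target of DNA methylation.

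The 4 genes lie on the plus strand of chromosome 16 within 76.0 kb. In GENCODE 29 (GRCh38), MT2A (ENSG00000125148) is at chr16:56608199-56609497, MT1E (ENSG00000169715) at chr16:56625475-56627112, MT1F (ENSG00000198417) at chr16:56657694-56660698 and MT1X (ENSG00000187193) at chr16:56682424-56684196. Each has a coding sequence of 186 bases including the stop codon, spread over 3 exons, and 20 of its 61 codons (32.8%) encode cysteine. The coding sequences are shown because their likeness bears on how reads can be assigned among the genes. Capitals mark bases that differ from MT2A at the same position.
MT2A: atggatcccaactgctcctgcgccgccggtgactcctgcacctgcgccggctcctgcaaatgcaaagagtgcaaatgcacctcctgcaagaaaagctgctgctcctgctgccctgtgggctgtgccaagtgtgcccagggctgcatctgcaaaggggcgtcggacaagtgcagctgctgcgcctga
MT1E: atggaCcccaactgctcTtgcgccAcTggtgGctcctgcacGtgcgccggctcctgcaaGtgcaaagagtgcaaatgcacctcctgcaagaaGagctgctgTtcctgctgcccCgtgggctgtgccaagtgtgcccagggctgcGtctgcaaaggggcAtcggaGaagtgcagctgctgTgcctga
MT1F: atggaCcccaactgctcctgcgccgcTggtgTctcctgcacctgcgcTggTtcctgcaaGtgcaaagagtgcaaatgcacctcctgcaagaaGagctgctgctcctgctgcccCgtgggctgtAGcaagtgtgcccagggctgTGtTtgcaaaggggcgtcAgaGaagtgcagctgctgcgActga
MT1X: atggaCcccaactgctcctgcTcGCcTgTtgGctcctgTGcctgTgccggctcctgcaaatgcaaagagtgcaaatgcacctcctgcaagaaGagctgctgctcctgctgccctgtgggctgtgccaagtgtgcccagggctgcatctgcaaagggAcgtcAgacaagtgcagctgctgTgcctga
MT1E and MT1X each differed from MT2A at 14 bases (92.5% identity) and MT1F at 16 bases (91.4%). Identity was lowest between MT1F and MT1X, at 88.7%. Within the transcript used for length, no 75-base window of MT2A or MT1F occurred in a transcript of another gene, against 0.794% of the windows of MT1E and 31.6% of those of MT1X. The shared windows of MT1X were mainly those of AC026461.1 (24.5%), an annotated gene on the same strand whose exons overlap MT1X, and of MT1G (5.85%). With windows of 150 bases the share for MT1X was 5.65%. The level of MT1X is therefore uncertain in so far as reads could be shared with those genes, neither of which was analysed here.

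Promoters of 2 of the 4 genes, MT2A and MT1X, were in the RefSeq promoter table (GRCh38.p14). The 250 bases before the start site were searched on both strands for the metal response element core, spelled TGCACNC or TGCGCNC. MT2A held 7 matches, a number reached by 11 of 35116 promoters (0.0313%), and MT1X held 4, reached by 130 (0.370%), whereas 24.8% of promoters held at least 1. The antioxidant response element core TGACNNNGC occurred once in each, without overlapping the metal motif, and at least once in 10.9% of promoters. The stretches below show 2 of the matches of MT2A, at chr16:56608408-56608437, and all 4 of MT1X, at chr16:56682220-56682423, both on the plus strand and with the metal motif in capitals (as its reverse complement where the match is on the other strand).
MT2A promoter: cgcggcccGTGTGCAgagccgggTGCGCCC
MT1X promoter: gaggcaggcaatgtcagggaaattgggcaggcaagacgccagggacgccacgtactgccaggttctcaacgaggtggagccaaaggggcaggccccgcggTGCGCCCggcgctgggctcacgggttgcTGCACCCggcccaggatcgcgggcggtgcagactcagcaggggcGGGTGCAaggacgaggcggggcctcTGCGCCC
GENCODE 29 places the first base of both genes upstream of the RefSeq start site. For MT2A the whole window lies within the GENCODE gene, so it is a promoter only by the RefSeq model. For MT1X, 204 of the 250 bases, which are the stretch shown with its 4 matches, lie before the first base in both models. Matches are described as letters, and binding was not measured.

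With all 6 libraries, MT1X transcripts were called higher in melanospheres. That call was lost when any single library other than 2D replicate 3 was left out. MT1F was also higher in each 3D library than in each 2D library but missed the threshold, and for MT2A and MT1E the cultures overlapped. In this test 12.5% of the 15598 tested genes were higher in 3D and 11.6% lower. Of the 4 metallothionein genes, all of which were tested, 1 (MT1X) was higher and none lower at an adjusted p under 0.05. Their median log2 change was 1.13, against -0.02 over all tested genes. Non-overlap with 3D above 2D was seen in 2 of the 4, and in 20.5% of tested genes (22.6% showed the reverse, as did none of the 4). In bulk RNA, a change in the number of cells that express a gene and a change in RNA per cell cannot be told apart.

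**Figure D1:**
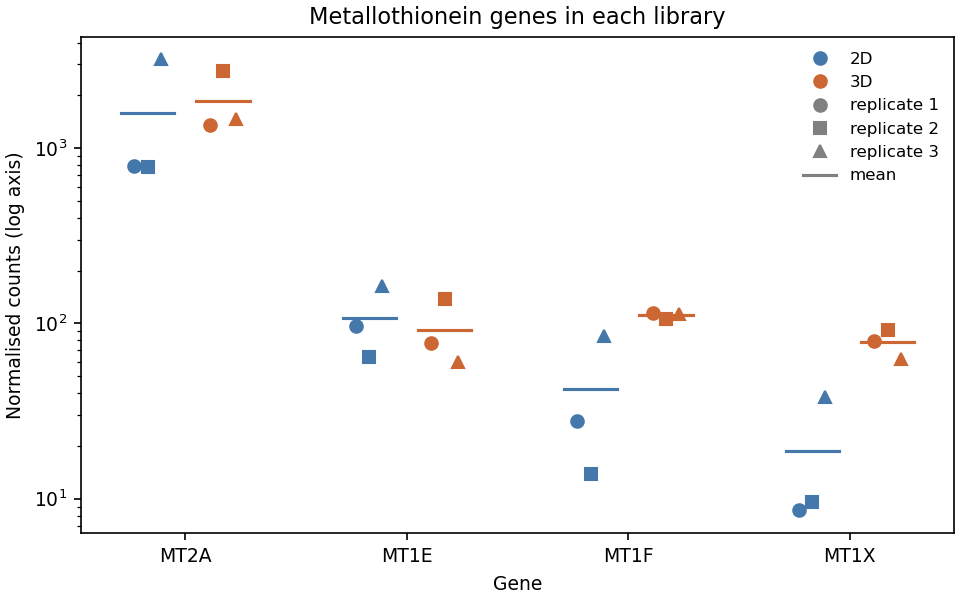
Normalised counts of the 4 metallothionein genes in each library on a log axis, with 2D in blue and 3D in orange, a marker shape per replicate number and a line at the mean of 3 libraries. The 3D points of MT1F and MT1X lie above all 2D points, whereas those of MT2A and MT1E overlap, and 2D replicate 3 is the highest 2D library for each gene.

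Values are normalised counts, which are read counts divided by 1 size factor per library, with no correction for gene length. Differences are log2 changes of (value + 1), 3D minus 2D, tested with limma and adjusted by the Benjamini-Hochberg method over all tested genes. The libraries held 16567763 to 19954987 reads assigned to genes. On the first principal component of all tested genes, 2D replicate 3 scored -24.7, against -84.4 or lower for its fellow adherent libraries and 59.3 or higher for the spheres. Because of this, and because 3D replicate 2 was the least like its group in 3D, results are also given without these libraries. The pigment cell markers MLANA, TYR, TYRP1, SOX10 and S100B were at means of 16.1 or less. Within 2D each of these was highest in replicate 3 (SOX10 at 4.77, 6.41 and 37.0 in replicate order), where MITF was lowest. MITF was at 1131 ± 215 in 2D and 288 ± 19.0 in 3D (SD, n = 3), PMEL at 434 ± 280 and 1071 ± 398, and DCT at 70.0 ± 42.4 and 0.619 ± 1.07. Of the 3 tested, MITF and DCT were lower in 3D whichever library was left out (log2 change -1.95 and -5.48, adjusted p = 0.00077 and 0.00144 by limma). PMEL did not pass (1.41, adjusted p = 0.0530 by limma). Of 7 epithelial markers, 6 had a row and 2 of 5 tested were lower in 3D, whichever library was left out: the adhesion molecule EPCAM, from 423 ± 55.8 to 172 ± 35.8 (log2 change -1.31, adjusted p = 0.00744 by limma), and the cadherin CDH1, from 92.3 ± 20.2 to 5.62 ± 2.74 (-3.89, adjusted p = 0.00124). Over all tested genes, 11.6% were lower. The keratin KRT8 was at 24771 ± 17046 in 2D and 24926 ± 3485 in 3D and did not pass. The summed level of the epithelial markers was 25644 to 65884 in 2D and 33899 to 44945 in 3D. On counts uncorrected for gene length, most pigment cell markers thus stood far below MITF, PMEL and the keratin in a line labelled as melanoma.

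Markers of other cell types were low or moved in part with the culture. Of 7 fibroblast markers, 4 had a row and 1 of 3 tested was higher in 3D, beside 12.5% of all tested genes. It was the collagen COL3A1 (log2 change 2.89, adjusted p = 0.00648 by limma). The summed level of the fibroblast markers was 2042 to 6539 in 2D and 9263 to 12212 in 3D, while DCN was at a mean of 0 and 1.64. Of 5 endothelial markers, 1 of 3 tested was higher (PECAM1, log2 change 5.72, adjusted p = 0.00395 by limma), beside the same 12.5% of all tested genes. The median log2 change of the 3 was -0.82, so the other tested endothelial markers had negative changes, and they did not pass. The endothelial sums were 39.5 to 319 in 2D and 138 to 188 in 3D, with KDR and TEK at means under 1. Of 6 leukocyte markers, 4 had a row, and PTPRC and CD14 were at means under 3 in both cultures. The 1 tested did not pass (log2 change 1.52) but passed as higher when 2D replicate 3 was left out. The leukocyte sum was 21.0, 32.0 and 63.7 in 2D and 108, 66.9 and 134 in 3D, in replicate order. The fibroblast and leukocyte sums, like MT1F and MT1X, were higher in every 3D library than in any 2D library, with 2D replicate 3 the highest in 2D. The part of these markers in the metallothionein results was not tested.

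MT2A, the main metallothionein of many human cell types, was the most abundant of the 4 in every library. Its values were 786.3, 777.1 and 3209 in 2D replicates 1, 2 and 3, and 1354, 2741 and 1466 in the 3D replicates in the same order. The highest value of all was in 2D replicate 3, the next in 3D replicate 2, and the cultures overlapped. The means were 1591 ± 1401 in 2D and 1854 ± 771 in 3D (SD, n = 3), a log2 change of 0.49 (SE 0.53, 95% interval -0.72 to 1.70, adjusted p = 0.523 by limma). Without 2D replicate 3 the log2 change was 1.17 (adjusted p = 0.00995 by limma), and without both that library and 3D replicate 2 it was 0.85 (adjusted p = 0.00021 by limma). With any other library left out it ran from 0.15 to 0.68 and did not pass.

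MT1E, an isoform of the MT1 group, did not pass in any fit. It was at 96.3, 64.1 and 163 in 2D replicates 1 to 3 and at 77.0, 138 and 59.9 in 3D replicates 1 to 3. Here too 2D replicate 3 was highest and 3D replicate 2 next, with overlap between the cultures. The log2 change was -0.22 (SE 0.43, 95% interval -1.20 to 0.76, adjusted p = 0.731 by limma), between means of 108 ± 50.7 in 2D and 91.5 ± 40.9 in 3D (SD, n = 3). Its sign turned when 2D replicate 3 was left out (0.13) or 3D replicate 3 (0.04), so the data give no direction for MT1E, and the interval leaves room for a change in either direction.

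MT1F, another MT1 isoform, was even among the melanospheres and uneven among the adherent cultures. Its values were 27.6, 13.9 and 84.3 in 2D and 115, 106 and 114 in 3D, in replicate order. The lowest 3D library exceeded the highest 2D library, 2D replicate 3. The reads were 29, 13 and 82 in 2D and 124, 109 and 110 in 3D. Exact Poisson 95% intervals, which cover counting error only, are 6.92 to 22.2 for 13 reads and 89.5 to 131 for 109. All 3D counts lay inside the latter, so the evenness in 3D is within counting error. The means were 41.9 ± 37.3 and 111 ± 5.04 (SD, n = 3), a log2 change of 1.76 (SE 0.57, 95% interval 0.47 to 3.06) with an adjusted p of 0.0537 by limma. Since that p lies beside the threshold, the choice of method moved the call: it was 0.0413 with DESeq2, 0.0494 after TMM scaling and 0.0919 with the edgeR quasi-likelihood test. Without 2D replicate 3 the log2 change was 2.44 (adjusted p = 0.00084 by limma), and without any other single library the adjusted p was 0.108 to 0.151.

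MT1X, the fourth expressed member and an MT1 isoform, showed the largest change of the 4. It stood at 8.58, 9.61 and 38.0 in 2D and at 79.8, 92.1 and 63.0 in 3D, in replicate order. Each 3D library was above each 2D library, and 2D replicate 3 was nearest to 3D. The means of 18.7 ± 16.7 and 78.3 ± 14.6 (SD, n = 3) gave a log2 change of 2.31 (SE 0.55, 95% interval 1.04 to 3.57, adjusted p = 0.0207 by limma). The adjusted p was 0.0321 with edgeR and 0.00287 with DESeq2. The call was lost when any single library other than 2D replicate 3 was left out (adjusted p 0.0614 to 0.0758 by limma, log2 change 1.95 to 2.45), and the change was larger without 2D replicate 3 (2.96, adjusted p = 0.00033). These levels rest on few reads: 9, 9 and 37 in 2D and 86, 95 and 61 in 3D. A count of 9 has an exact Poisson 95% interval of 4.12 to 17.1, which covers counting error only.

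**Figure D2:**
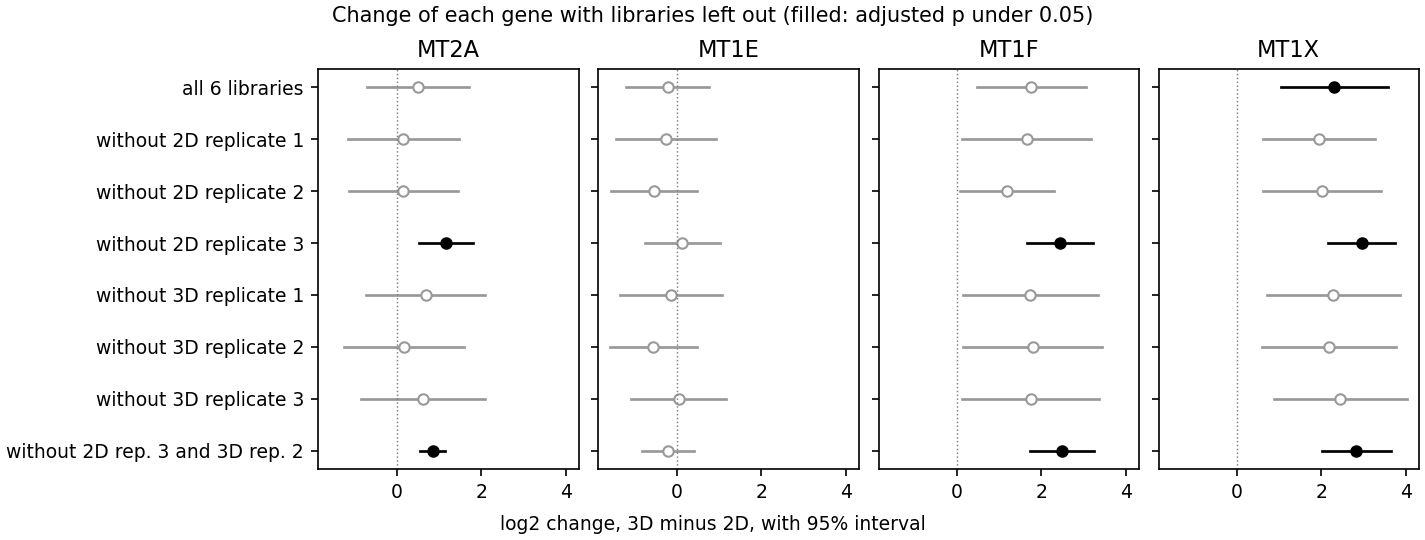
Log2 change of each gene (3D minus 2D, horizontal axis, with its 95% interval from limma) with all 6 libraries and with libraries left out (rows). Filled points have an adjusted p under 0.05: MT1X passes with all libraries, MT2A, MT1F and MT1X pass wherever 2D replicate 3 is left out, and MT1E passes in none of these fits.

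A single adherent library carried much of the spread. In 2D replicate 3, MT2A was 4.10 times, MT1F 4.06 times and MT1X 4.18 times the mean of the other 2D libraries, and MT1E 2.04 times. On the log2(value + 1) scale, 2D replicate 3 lay above the mean of the other 2D libraries by 2.04 for MT2A, 2.05 for MT1F, 1.95 for MT1X and 1.05 for MT1E. Differences at or above these were seen in 2.12%, 2.05%, 2.37% and 9.91% of all tested genes, respectively. In 3D replicate 2 the genes parted: MT2A was 1.94 times and MT1E 2.01 times the mean of the other 3D libraries, while MT1X was 1.29 times and MT1F 0.924 times that mean. Without 2D replicate 3, 3 of the 4 genes were higher in 3D, where the share of all tested genes called higher was 22.6%. With 3D replicate 2 left out as well, the same count of 3 stood against 28.4%.

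Levels of different genes were compared per kilobase of transcript. In 2D the order was MT2A at 2024 ± 1783, MT1E at 153 ± 72.0, MT1F at 60.8 ± 54.1 and MT1X at 41.6 ± 37.2 normalised counts per kb (SD, n = 3). In 3D it was MT2A at 2358 ± 981, MT1X at 174 ± 32.5, MT1F at 161 ± 7.31 and MT1E at 130 ± 58.1. In 2D, MT1E exceeded MT1F and MT1X in each library, although its range over libraries overlapped that of MT1F, and MT1F and MT1X overlapped each other. In 3D the ranges of the 3 MT1 genes all overlapped. MT2A made up 87.4% ± 3.41 of the summed level per kb in 2D and 82.7% ± 3.57 in 3D (SD, n = 3).

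The mean shares of the minor members differed between the cultures, and the shares were not tested. MT1X made up 1.59%, 1.90% and 1.87% of the summed level in 2D and 8.15%, 5.06% and 6.21% in 3D, in replicate order, so every 3D library was above every 2D library. The size of this share depends on the length used: counted over windows found in no other gene it was 2.80% ± 0.266 in 2D and 9.86% ± 2.29 in 3D, and without division by length 1.04% ± 0.0966 and 3.87% ± 0.969 (SD, n = 3). MT1F went from 2.61% ± 0.781 to 6.25% ± 2.14, and MT1E from 8.23% ± 3.15 to 4.55% ± 0.677 (SD, n = 3). These shares sum to a whole in each library and so do not vary independently. Without division by length, MT2A made up 89.1% and 86.2%, so its place as the main transcript did not rest on the lengths used.

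A ratio within a library removes what moves both genes alike there, and transcript length cancels in its difference between cultures. The ratios were computed after the values had been seen. The log2 ratio of MT1X to MT2A was -6.36, -6.20 and -6.36 in 2D and -4.07, -4.88 and -4.52 in 3D. The 2D values spanned 0.16, although both genes were about 4 times higher in 2D replicate 3, and the ratio was 3.52-fold higher in 3D (difference 1.82). MT1X was among 22 of 15597 tested genes (0.141%) whose ratio to MT2A had so narrow a span in 2D, and the span was narrower than the counting error of 9 reads.

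For MT1F the log2 ratio to MT2A was -4.78, -5.71 and -5.23 in 2D and -3.55, -4.68 and -3.68 in 3D. Again the 3D values lay above all 2D values, by 1.27 on average. For MT1E it was -3.02, -3.58 and -4.29 in 2D and -4.12, -4.31 and -4.59 in 3D, with overlap and a difference of -0.71. MT1E was lower in 3D relative to MT1F (difference -1.98) and relative to MT1X (-2.53) without overlap, and the ratio of MT1F to MT1X overlapped (-0.55). Over the 6 pairs, the 4 without overlap had a two-sided exact permutation p of 0.1, the smallest that 3 against 3 allows, and 0.15 after Benjamini-Hochberg adjustment, so no ratio could pass the threshold. For comparison, 5.06% of tested genes had a ratio to MT2A that was higher in every 3D library than in every 2D library. The reverse was seen in 3.8%. Such a share was not computed for ratios to MT1F or MT1X. Those genes were themselves higher in every 3D library, so the non-overlap of MT1E against them is not a result about MT1E alone.

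**Figure D3:**
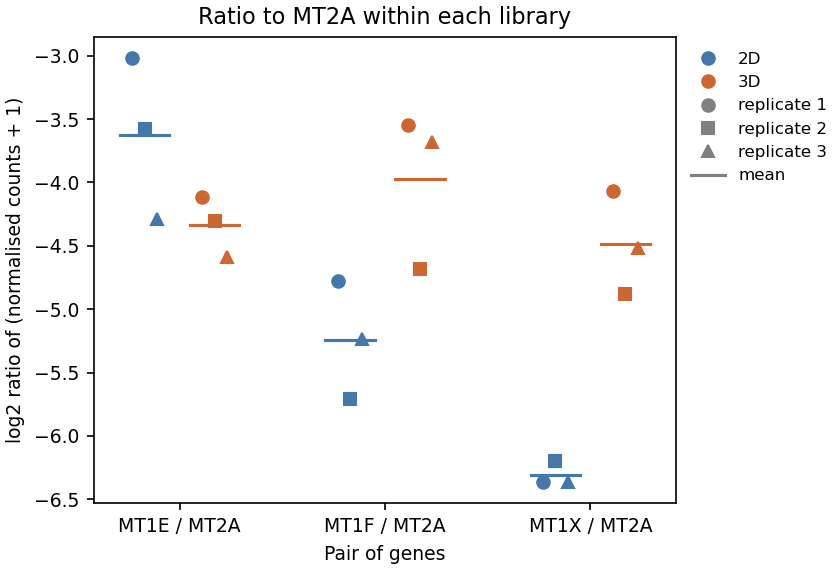
Log2 ratio of (normalised counts + 1) of MT1E, MT1F and MT1X to MT2A in each library, with 2D in blue, 3D in orange, a marker shape per replicate number and a line at the mean. The 3 values of MT1X in 2D lie within 0.16 of each other and below all 3D values, MT1F is separated as well, and MT1E overlaps.

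Across the 6 libraries, Pearson correlations of log2(value + 1) were 0.943 between MT1F and MT1X, 0.746 between MT1E and MT2A, 0.737 between MT1F and MT2A and 0.722 between MT1X and MT2A. MT1E was least like MT1F (0.285) and MT1X (0.203). These are descriptions over libraries that share 2 culture groups and the high values of 2D replicate 3. The genes closest to MT2A among 11093 with a mean of at least 100 were GRSF1, an RNA-binding protein of mitochondria (0.996), the neuronal early gene ARC (0.996), the integrin chain ITGB5 (0.992), SH3BGRL (0.992) and TRIM21, an antibody receptor of the cytosol (0.990). ARC, for example, was at 14.3, 13.9 and 332 in 2D and 52.0, 184 and 68.1 in 3D, with 2D replicate 3 and 3D replicate 2 highest, as for MT2A. The closest to MT1E were CIR1 (0.993), ELP4 (0.991), CAP2 (0.989), SPATS2L (0.985) and IMPA1 (0.980). A Pearson correlation above 0.9 was found for 374 of the 11093 genes with MT2A and for 148 with MT1E, so those named are a few of many.

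Of 15 other metallothionein genes and pseudogenes, 4 had a row and none reached the mean of 10 needed for the test. The pseudogene MT1DP was at 5.51 ± 3.25 in 2D and 9.37 ± 1.87 in 3D, MT1P1 at 3.40 ± 0.758 and 5.58 ± 2.54, MT1JP at 2.38 ± 0.625 and 0.963 ± 0.930 and MT1P3 at 0.356 ± 0.616 and 0.688 ± 1.19 normalised counts (SD, n = 3). These levels are a few reads per library.

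The genes that control metallothionein transcription were at lower levels in 3D or did not pass. Of 14 such regulators, all tested, 6 were lower and none higher, with a median log2 change of -0.63, against 11.6% of all tested genes lower. MTF1, the zinc sensor, was at 319, 437 and 450 in 2D and at 358, 341 and 365 in 3D. Its groups overlapped, and its log2 change was -0.16 (SE 0.20, 95% interval -0.63 to 0.30, adjusted p = 0.581 by limma). NR3C1, the glucocorticoid receptor, was at 3212, 3133 and 2361 in 2D and at 1350, 1523 and 1227 in 3D. No 3D library reached the lowest 2D library, and its log2 change of -1.08 (SE 0.18, adjusted p = 0.00607 by limma) passed whichever library was left out.

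EPAS1, the hypoxia-inducible factor HIF-2 alpha, fell furthest of the regulators, from 18621 ± 4498 to 3390 ± 438 (SD, n = 3), with a log2 change of -2.43 (adjusted p = 0.00058 by limma) that also passed in each of those fits. MAFF, a small MAF protein that binds antioxidant response elements, fell from 710 ± 367 to 161 ± 29.7 (-1.97, adjusted p = 0.0147), and NFE2L2, the oxidant-responsive factor NRF2, from 4872 ± 1053 to 2611 ± 202 (-0.88, adjusted p = 0.0173). STAT3, which conveys cytokine signals, and MAFG changed by -0.64 and -0.62 (adjusted p 0.0270 and 0.0318). The calls of MAFF, NFE2L2, STAT3 and MAFG were each lost when either of 2D replicates 1 and 2 or 3D replicate 3 was left out, and those of STAT3 and MAFG also when 3D replicate 1 or 2 was. NFE2L2 was lost without 3D replicate 1 as well. Without 2D replicate 3, 10 regulators were lower and none higher, where 23.0% of all tested genes were lower.

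Of 7 tested SLC30 genes, which carry zinc out of the cytosol, 1 was higher and none lower (median log2 change -0.28), beside 12.5% of all tested genes higher and 11.6% lower. SLC30A3, a vesicular zinc transporter, rose from 299 ± 93.8 to 587 ± 168 (0.97, adjusted p = 0.0420 by limma). SLC30A1, the exporter that MTF1 controls together with the metallothioneins, was at 2324, 2496 and 2495 in 2D and 1992, 3115 and 1725 in 3D. Its highest and lowest values were both in 3D, and its log2 change was -0.15 (SE 0.23, adjusted p = 0.666), with a sign that turned without 3D replicate 3 (0.03). Of 10 tested SLC39 genes, which carry zinc into the cytosol, none was higher and 2 were lower, with a median log2 change of -0.50, beside the same shares of all tested genes. The 2 were SLC39A8, from 841 ± 105 to 505 ± 25.1 (-0.73, adjusted p = 0.0203), and SLC39A10, from 3293 ± 151 to 2152 ± 217 (-0.62, adjusted p = 0.0256). The calls of SLC30A3, SLC39A8 and SLC39A10 were lost if 2D replicate 1 or 2, or 3D replicate 1 or 3, was dropped. Without 2D replicate 3, 7 SLC39 genes were lower and 1 higher, where 23.0% of all tested genes were lower and 22.6% higher.

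Among 16 tested genes of copper handling, 1 was higher and 1 lower (median log2 change 0.14), no more than the 12.5% and 11.6% of all tested genes. STEAP4, a metalloreductase of iron and copper, was at 2075, 2142 and 1085 in 2D and at 41.8, 6.79 and 57.8 in 3D. The cultures were far apart, with a log2 change of -5.97 (SE 0.68, adjusted p = 0.00118 by limma) that passed whichever library was left out. Its relative STEAP3 went the other way, from 630 ± 325 to 1341 ± 129 (1.20, adjusted p = 0.0276), a call that was lost when any single library except 2D replicate 3 was left out.

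Of 10 tested genes that respond to metals or oxidants, 1 was higher and 1 lower (median log2 change -0.13), again near the 12.5% and 11.6% of all tested genes. HMOX1, a heme oxygenase that metals and oxidants induce, was at 211, 196 and 345 in 2D and at 358, 576 and 477 in 3D. Its 3D libraries were all higher, narrowly above 2D replicate 3, with a log2 change of 0.92 (SE 0.28, adjusted p = 0.0446 by limma). Of the fits with a single library left out, it passed only in that without 2D replicate 3. SLC7A11, the cystine importer, fell from 3871 ± 756 to 1470 ± 728 (-1.49, adjusted p = 0.0140), and that call did not hold when 2D replicate 2 or when 3D replicate 1 or 3 was dropped.

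Of 9 tested glucocorticoid response genes, 1 was higher and 3 were lower (median log2 change -0.25), beside 12.5% of all tested genes higher and 11.6% lower. The phosphatase DUSP1 fell from 19746 ± 14177 to 2108 ± 1444 (-3.22, adjusted p = 0.00620 by limma) and the transcription factor KLF9 from 517 ± 200 to 120 ± 52.7 (-2.12, adjusted p = 0.0112), and both calls held whichever library was left out. The kinase SGK1 changed by -1.15 (adjusted p = 0.0166, lost when 2D replicate 1 or when 3D replicate 1 or 3 was dropped) and the clock gene PER1 by 0.78 (adjusted p = 0.0398, lost if 2D replicate 1 or 2, or 3D replicate 1 or 3, was dropped). FKBP5, a chaperone gene that glucocorticoids induce, was at 1097 ± 156 and 919 ± 30.5 (-0.25, SE 0.17, adjusted p = 0.307).

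**Figure D4:**
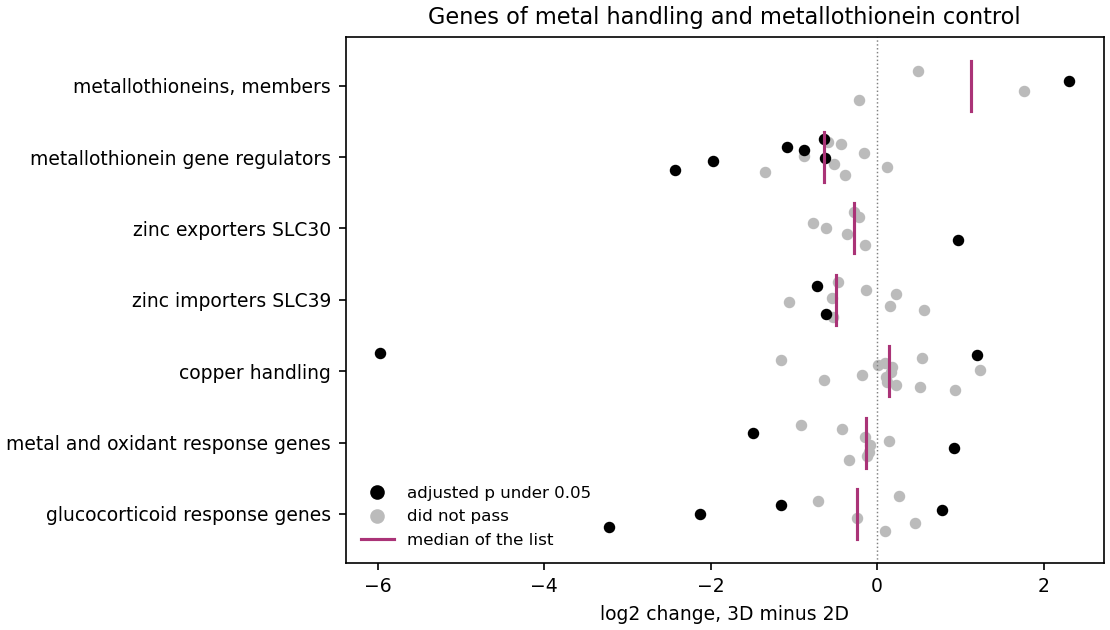
Log2 change (3D minus 2D, horizontal axis) of each tested gene in the metallothionein list and in 6 lists of genes that control them, handle metals or respond to the same signals. Black points have an adjusted p under 0.05, grey points did not pass, and the bar marks the median of the list, 1.13 for the metallothioneins and -0.63 for their regulators.

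Around the cluster, 8 protein-coding genes within 300 kb were tested. None was higher and 1 was lower, a share close to the 11.6% of all tested genes that were lower, and their median log2 change was -0.21. The one that passed was OGFOD1, a prolyl hydroxylase that modifies a ribosomal protein, which went from 2677 ± 1033 to 1279 ± 135 (-0.98, SE 0.30, adjusted p = 0.0450 by limma). Of the fits with a single library left out, that call was kept only in that without 2D replicate 3. MT1F and MT1X, with log2 changes of 1.76 and 2.31, lay among neighbours with changes of either sign.

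**Figure D5:**
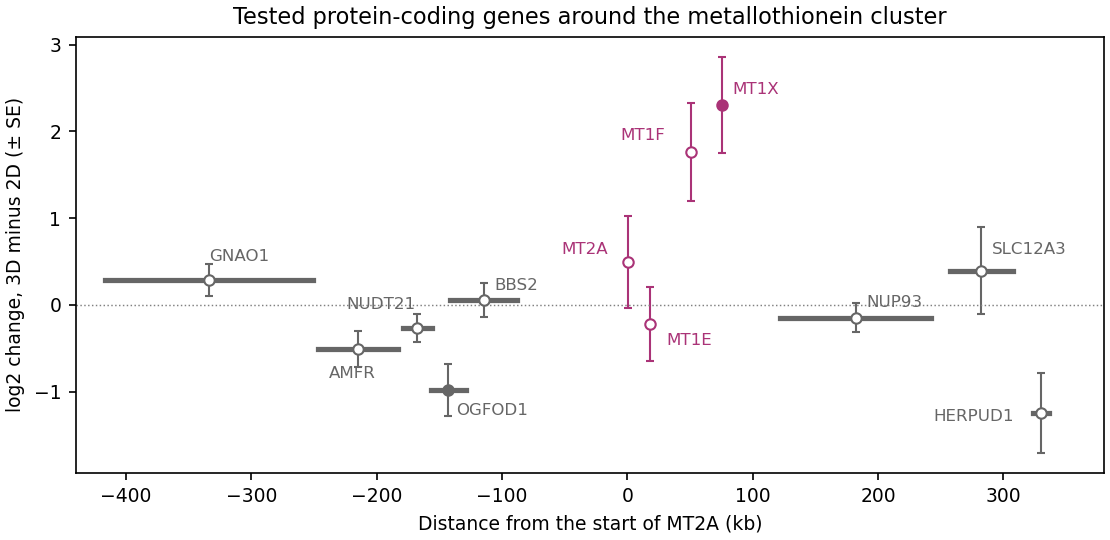
Log2 change (3D minus 2D, with its SE) of the tested protein-coding genes against their distance from the start of MT2A in kb, with metallothioneins in purple and horizontal bars spanning each neighbour. Filled points (MT1X and OGFOD1) have an adjusted p under 0.05.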

How the data were processed

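RNeasy-extracted RNA went into TruSeq RNA (v2) libraries, a kit that does not mark strand, for NovaSeq sequencing, per the labels' protocols. The submitters' processing notes name HISAT2, featureCounts 1.5.0, DESeq2 and GRCh38. The unit of the deposited table is a normalised signal: the authors scaled each library's gene counts by its own size factor. Whole reads could be recovered from it (100% of values within 0.01 of a read). Another 6 columns of the table were empty and left aside. Sample titles gave the groups.

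Testing was limited to genes averaging 10 or more normalised counts and used limma 3.58.1 (R 4.3.3; lmFit, eBayes with trend) on log2(value + 1), a scale that understates changes of low genes, at an adjusted p of 0.05. Alternatives were pseudocounts of 0.1 and 10, other filters (none, a mean of at least 50), other scalings, robust eBayes, the replicate number as a block, edgeR 4.0.16 and DESeq2 1.42.0 on the recovered reads, and leaving out libraries. Symbols were found for 26506 genes, and sequences were compared with Python 3.11.15. The fit was tested on simulated counts without an outlying library, unlike these data, and no result here rests on that test. The metallothioneins and the gene lists were chosen with earlier results of these data known. Named were all metallothioneins, up to 6 members of each list past the threshold, MTF1, SLC30A1, HMOX1, NR3C1 and FKBP5, and the 5 genes most like MT2A and MT1E. OGFOD1 and the marker genes were named outside that rule, after their values were seen. The ratios to MT2A and between pairs were added after the values were seen.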

Additional observations from a re-analysis of the deposited data

How the results depend on the processing

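Of 431 values of 24 named genes under the alternatives, 358 kept their direction and side of the threshold, 60 no longer passed (54 of them with 1 library left out), 10 newly passed and 3 changed sign. MT1E ran from -0.56 to 0.13 with 1 library left out and SLC30A1 from -0.39 to 0.032, with reversals for MT1E without 2D replicate 3 (0.13) or 3D replicate 3 (0.04) and for SLC30A1 without 3D replicate 3. The cause was not tested. With all libraries, 1 metallothionein gene was called in the main fit. With a pseudocount of 10, TMM scaling, equal library totals or DESeq2 it was 2 (MT1F as well as MT1X). Of all tested genes, 13.0%, 13.3%, 15.3% and 15.4% were higher in those settings, in that order, against 12.5% in the main fit. With a mean of at least 50 the count was 0, since MT1X was then not tested. Leaving out 1 library gave 0 to 3, and leaving out both 2D replicate 3 and 3D replicate 2 gave 3. The share of all tested genes that were higher was 3.42% to 22.6% without 1 library and 28.4% without both. Over all tested genes, 3766 (24.1%) were called and 4724 (30.3%) with DESeq2. Without 1 library it was 1190 (7.63%) to 7111 (45.6%), and without both 9041 (58.0%). The other 6 lists held 14, 7, 10, 16, 10 and 9 tested genes, with SLC30A1 listed more than once. Of these, 17 were called, 26 with DESeq2, 5 to 37 without 1 library and 43 without both. These counts are to be read beside the shares of all tested genes. Equal library totals moved the median log2 change of all genes from -0.02 to 0.11, and the calls from 1950 higher and 1816 lower to 2392 and 1253. The median correlation over the 6 pairs of metallothioneins was 0.73 by Pearson, 0.49 by Spearman and 0.84 after each culture was centred on its own mean. For the ratio of MT1X to MT2A, a pseudocount of 10 gave a difference of 1.27 in place of 1.82.

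The cultures share replicate numbers. Deviations from the culture mean correlated at -0.08, -0.14 and 0.04 for same-numbered libraries and at -0.10 to 0.18 for the others. With 3 libraries per culture, these values cannot settle whether same-numbered libraries were handled together. With the replicate number as a block, 2 metallothionein genes were called (MT1F at an adjusted p of 0.0359 by limma) and 3222 genes in all. In that fit 11.2% of all tested genes were higher. Depth limits MT1X most, with 9 reads in each of 2D replicates 1 and 2.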
